A study of Saccharomyces cerevisiae with 6 samples.

Results

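The Hap1-dependent part of the oxygen response of budding yeast (Saccharomyces cerevisiae) was measured as the difference between a hap1 deletion strain and wild type in how each gene responded to low oxygen. For every gene the mean log2 ratio of hypoxic over aerobic RNA on the 3 wild-type arrays was subtracted from the same mean on the 3 deletion arrays, the interaction between strain and oxygen. Of the 6282 genes in the deposited table, 6208 had at least 2 values in each strain and were tested, and all 6 arrays of the series were used. One group was wild-type cells grown with air and in hypoxia, and the other was cells lacking HAP1 grown in the same pair of conditions. Each array held RNA of the aerobic and of the hypoxic culture of 1 strain on its 2 colour channels, and the replicates were independent cultures from different days. No source used here gives the strain background, further alleles, the way HAP1 was removed, the number of clones, the medium, the oxygen level or the time in hypoxia.

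A positive difference means that the ratio of hypoxic over aerobic RNA was higher without Hap1. It can arise from more RNA in hypoxia or from less RNA in air, and because each array gives only a ratio within 1 strain these cannot be told apart. The cultures were measured in bulk, so a change in part of the cells and a smaller change in all cells cannot be told apart either. All values below are on the log2 scale, in which a difference of 1 is a 2-fold difference, and per-array values are given in the order of replicates 1 to 3.

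Hap1 is a zinc-cluster transcription factor that binds heme. Making heme requires oxygen, and with heme bound Hap1 activates genes of respiration, sterol synthesis and oxidative defence in air, among them ROX1, whose product represses hypoxic genes. Without heme Hap1 is held in complexes with chaperones, and it can act as a repressor. Ergosterol, the main sterol of yeast membranes, is made from acetyl-CoA through mevalonate, squalene and lanosterol. Squalene epoxidation, the removal of methyl groups and the desaturations that follow consume oxygen, and some of these enzymes are heme proteins. Fatty acid desaturation by Ole1 also consumes oxygen. Laboratory strains of the S288C family carry a transposon in HAP1 that weakens it, and no source used here says whether this wild type did.

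The HAP1 spot read 0.84, 0.50 and 1.10 in wild type and 0.47, 0.56 and 0.72 in the deletion strain. This ratio sets a strain against itself, so it cannot check the deletion. Between 15 and 678 of 6282 values were missing per array. Across genes, arrays of the same strain correlated at r from 0.329 to 0.575 and arrays of different strains at r from 0.0971 to 0.538, so the 2 kinds of pair overlapped. Wild-type replicate 1 was closest to deletion replicate 3, and several results below are given with and without it. Each gene had 1 residual spread over both strains, so a gene that varied widely between the wild-type arrays was harder to call. The number of arrays limits the precision, and the median standard error (SE) of the difference was 0.341 over all tested genes.

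Without Hap1 the oxygen response of a small set of genes differed from wild type, and sterol synthesis was the largest group among them. By limma's moderated test 19 genes were higher without Hap1, 0.306% of those tested, and 3 were lower, 0.0483% (Benjamini-Hochberg adjusted p under 0.05), while 6186 did not pass. An unadjusted p under 0.05 was reached by 265 higher and 230 lower genes. Of the 19, 9 act in sterol synthesis, as enzymes, as a scaffold of them or as an electron donor. The called differences ran in size from 1.73 to 6.01, or from 3.31-fold to 64.2-fold, against a median difference of -0.03 over all tested genes. These calls depended on single arrays and on scaling. Without wild-type replicate 1 there were 16 calls, 12 of them among the 22, and without any 1 of the other 5 arrays only YHB1 and CYC1 were called. Arrays scaled to the same spread gave 3 calls (CYC1, ERG13 and ERG26), quantile normalization gave 13 and a dye term gave 7. All 20 called genes with 6 values had separate ranges in the 2 strains. For comparison, 344 of the 5301 genes with 6 values lay higher on every deletion array than on every wild-type array, 6.49%, and 462 lay lower, 8.72%. The calls rest on the same values, so the separate ranges of the called genes are no further support for them.

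**Figure D1:**
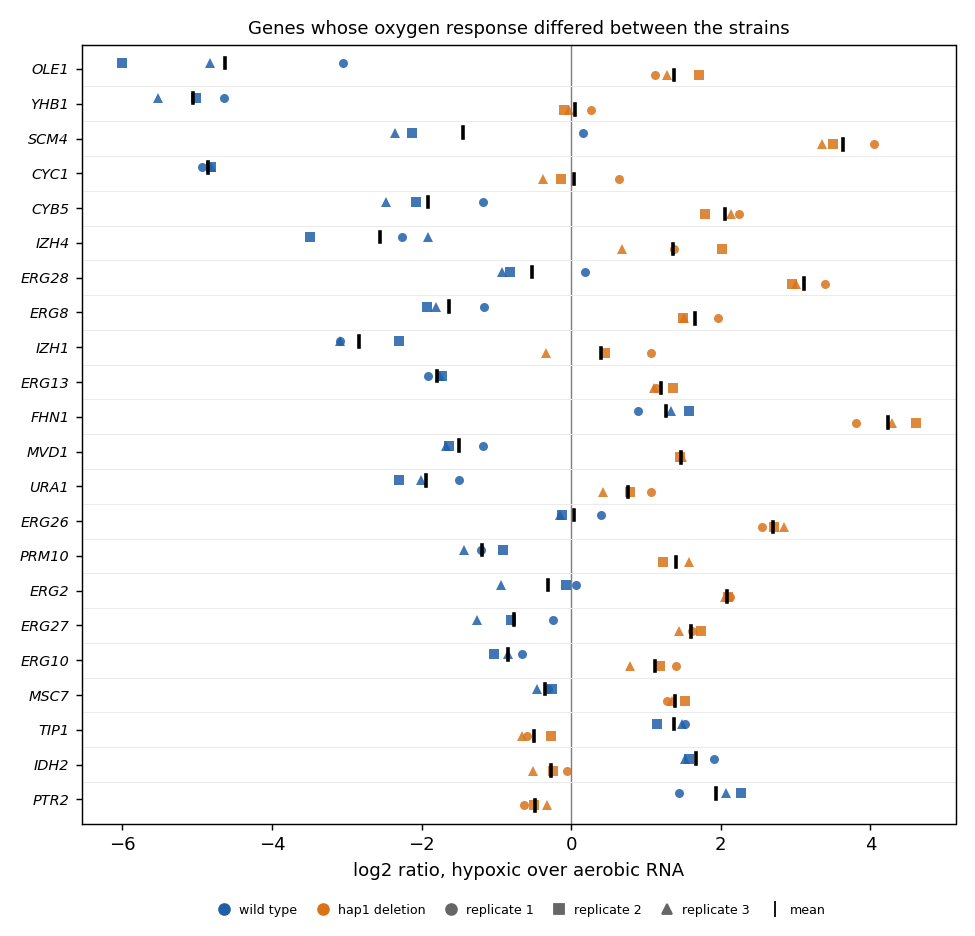
Log2 ratio of hypoxic over aerobic RNA (horizontal axis) of the 22 genes whose response differed between the strains, ordered by the difference. Each point is 1 array, blue for wild type and orange for the hap1 deletion, with the replicate shown by its shape and the mean of a strain by a black bar. OLE1, YHB1 and CYC1 lie far below 0 on all wild-type arrays only, while TIP1, IDH2 and PTR2 lie above 0 in wild type and below 0 without Hap1.

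The 19 higher genes did not all reach their difference in the same way. For 17 of them the mean ratio was below 0 in wild type and above 0 without Hap1. All 3 wild-type values were below 0 for 14, all measured deletion values were above 0 for 16, and both held for 11. In the test of each strain's own mean, 11 of the 19 were lower in hypoxia in wild type and 13 were higher in hypoxia without Hap1, with 1 (FHN1) higher in both strains. Over all tested genes, 1.92% were higher and 2.32% were lower in hypoxia in wild type, and in the deletion strain 2.5% were higher and 1.82% lower. The strain means and the difference rest on the same arrays, so they are not independent of each other.

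**Figure D2:**
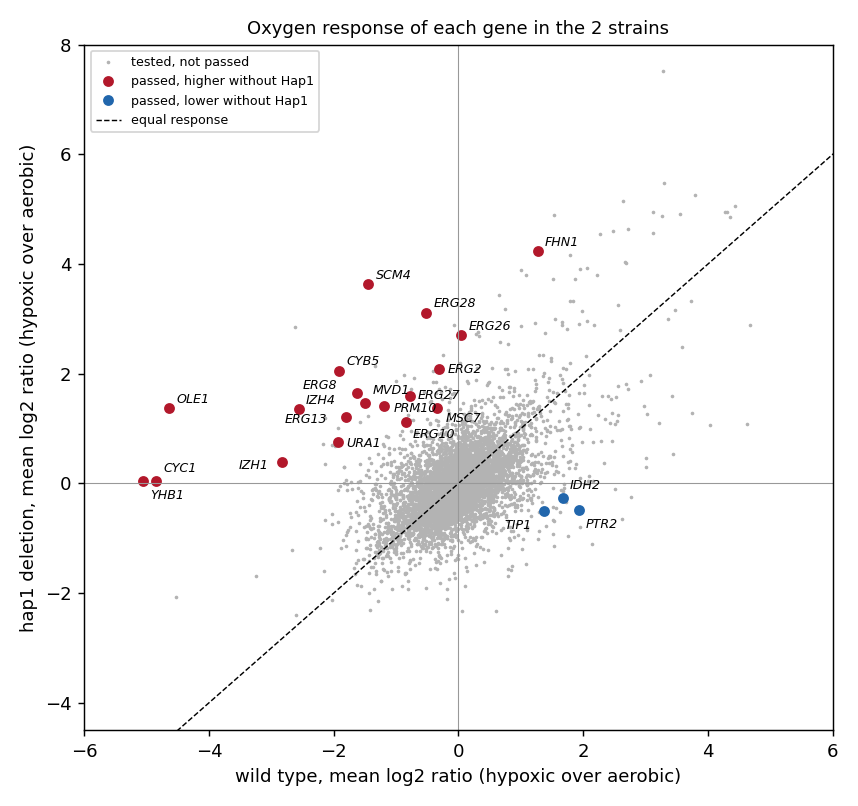
Mean log2 ratio of hypoxic over aerobic RNA in wild type (horizontal axis) and in the hap1 deletion (vertical axis) for the 6208 tested genes, grey where the difference did not pass. Genes on the dashed line responded equally in both strains. The 19 red genes lie above the line and the 3 blue genes (PTR2, IDH2 and TIP1) below it.

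YHB1 and CYC1 had the lowest p-values of the test. YHB1 (YGR234W), the flavohemoglobin that detoxifies nitric oxide, read -4.64, -5.02 and -5.52 in wild type and 0.27, -0.10 and -0.03 without Hap1. Its strong fall in hypoxia was thus seen on every wild-type array, and no deletion array moved by more than 0.27 from 0. The difference was 5.11 ± 0.30 (SE, n = 3 against 3), 34.5-fold (limma adjusted p = 0.00389). CYC1 (YJR048W), the main form of cytochrome c, read -4.93, -4.81 and -4.81 in wild type and 0.64, -0.13 and -0.38 without Hap1. The wild-type values were nearly equal, and the deletion values lay on both sides of 0. Its difference was 4.89 ± 0.32, 29.7-fold (limma adjusted p = 0.00389).

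Of 13 genes listed here as activated by Hap1, 3 were higher without Hap1 (YHB1, CYC1 and CYB5), none was lower and 10 did not pass. Over all tested genes 0.306% were called higher. The list was chosen with earlier results of these data known, so it is no independent check of Hap1 targets. All 13 differences were above 0, with a median of 1.77, and 10 of the 12 with 6 values had separate ranges, against 6.49% of all genes with 6 values. Left out in turn, wild-type replicate 1 raised the number called to 4 and each other array lowered it to 2. CYC7, the minor cytochrome c, read -1.64, -3.52 and -1.28 in wild type and 0.77, -0.01 and 0.29 without Hap1, a difference of 2.49 ± 0.59 that did not pass (limma adjusted p = 0.297). The strains did not overlap, but wild-type replicate 2 lay well below the other arrays of its strain. HMG1, the main HMG-CoA reductase, read -1.01, -3.12 and -2.39 in wild type and 1.24, 0.45 and 0.47 without Hap1. Its difference of 2.89 ± 0.55 did not pass (limma adjusted p = 0.162), again with separate ranges. CYT1, the cytochrome c1 of the bc1 complex, had a difference of 1.77 ± 0.44 (limma adjusted p = 0.336).

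ROX1, which encodes the repressor of hypoxic genes, read -0.36, -1.66 and -0.75 in wild type and -0.08, -0.33 and -0.15 without Hap1. Its difference of 0.74 ± 0.37 did not pass (limma adjusted p = 0.686), although every deletion value was above every wild-type value. NCP1, the reductase that feeds electrons to cytochrome P450, had 0.77 ± 0.25 (limma adjusted p = 0.464). The differences were 0.74 ± 0.28 for the D-lactate dehydrogenase DLD1, 1.01 ± 0.69 for the mitochondrial superoxide dismutase SOD2 and 0.46 ± 0.41 for the L-lactate dehydrogenase CYB2. CTT1, the cytosolic catalase, had 0.96 ± 0.68 from 2 deletion values of 0.26 and 2.27. None of these 4 passed, with adjusted p of 0.575, 0.733, 0.795 and 0.745 in limma's test.

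OLE1 had the largest difference of all tested genes. OLE1 (YGL055W), the desaturase that makes monounsaturated fatty acids, read -3.06, -6.01 and -4.83 in wild type and 1.12, 1.71 and 1.28 without Hap1. It was far lower in hypoxia on every wild-type array and above 0 on every deletion array, with a gap of 4.18 between the strains. The difference was 6.01 ± 0.70, 64.2-fold (limma adjusted p = 0.0345). The wild-type arrays themselves spread over a range of 2.95, and its SE was larger than that of YHB1. Among 17 genes of fatty acid synthesis and activation OLE1 was the only one called, where 0.306% of all tested genes were called higher. The list's median was 0.07. MGA2, a membrane-bound activator of OLE1, had 0.57 ± 0.24 (limma adjusted p = 0.624). FAS1, a subunit of fatty acid synthase, read -0.68, -0.69 and -0.76 in wild type and 0.45, -0.14 and 1.14 without Hap1 and did not pass (1.20, limma adjusted p = 0.426).

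Sterol synthesis held the largest group of called genes. In the early part of the pathway, from acetyl-CoA to farnesyl pyrophosphate, 4 of 9 genes were higher without Hap1 and 5 did not pass, with a median difference of 1.98. In the later part, from squalene synthase to ergosterol with its electron donors, 5 of 15 were higher and 10 did not pass, with a median of 2.40, and all 15 differences were above 0. For comparison with both parts, 0.306% of all tested genes were called higher. ERG24 had too few values to test. The number called in either part was 0 when any 1 array other than wild-type replicate 1 was left out, and 2 early and 8 late genes were called without wild-type replicate 1. The medians stayed between 1.87 and 2.14 in the early part and between 2.11 and 2.62 in the later part under every alternative processing and every left-out array.

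**Figure D3:**
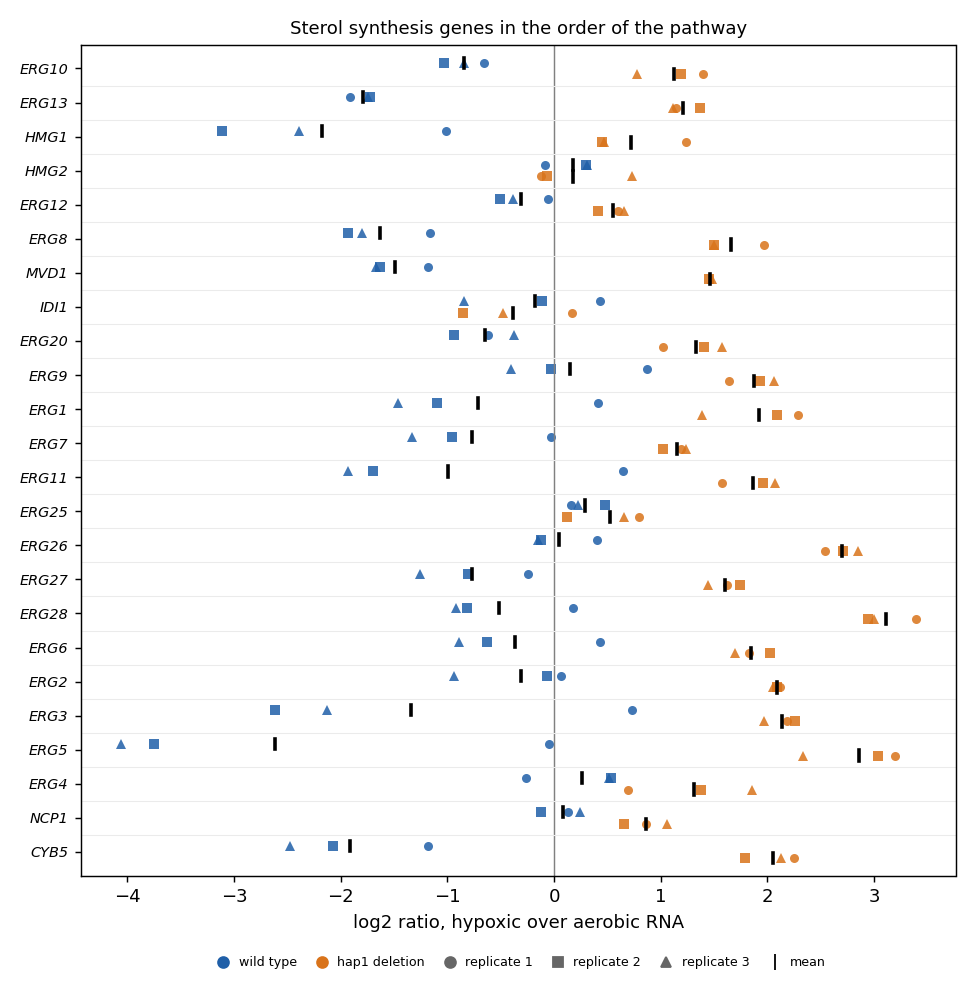
Log2 ratio of hypoxic over aerobic RNA (horizontal axis) of 24 genes of sterol synthesis in pathway order from ERG10 at the top, with the electron donors NCP1 and CYB5 at the bottom. Each point is 1 array (blue wild type, orange hap1 deletion, shape for the replicate) and black bars are strain means. Wild-type replicate 1 (blue circles) lies to the right of the other wild-type arrays at ERG11, ERG3 and ERG5, and HMG2, IDI1 and ERG25 show overlapping strains.

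ERG10 (YPL028W), the thiolase that joins 2 acetyl-CoA, read -0.65, -1.03 and -0.85 in wild type and 1.40, 1.19 and 0.78 without Hap1. Every wild-type value was below 0 and every deletion value above it, and the difference was 1.97 ± 0.27 (limma adjusted p = 0.0454). ERG13 (YML126C), HMG-CoA synthase, read -1.91, -1.73 and -1.75 in wild type and 1.14, 1.37 and 1.11 without Hap1. Both strains were tight and lay on opposite sides of 0, and the difference was 3.0 ± 0.23, 8.01-fold (limma adjusted p = 0.00733). ERG8 (YMR220W), phosphomevalonate kinase, read -1.16, -1.93 and -1.80 in wild type and 1.97, 1.5 and 1.5 without Hap1. It too changed sign between the strains, with a difference of 3.29 ± 0.30 (limma adjusted p = 0.0183). MVD1 (YNR043W), the mevalonate pyrophosphate decarboxylase, read -1.18, -1.63 and -1.67 in wild type and 1.45 and 1.48 on deletion replicates 2 and 3, with replicate 1 missing. Its difference of 2.96 ± 0.30 (n = 3 against 2) passed (limma adjusted p = 0.0345).

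ERG20, farnesyl pyrophosphate synthase, lay just outside the threshold. It read -0.62, -0.94 and -0.38 in wild type and 1.02, 1.40 and 1.57 without Hap1, a difference of 1.98 ± 0.28 (limma adjusted p = 0.0502), and the strains did not overlap. Not every enzyme of the early pathway showed a difference of this size. ERG12, mevalonate kinase, had 0.87 ± 0.24 (limma adjusted p = 0.402). HMG2, the second HMG-CoA reductase, read -0.08, 0.30 and 0.30 in wild type and -0.12, -0.06 and 0.73 without Hap1, so its strains overlapped, with a difference of 0.01 (95% confidence interval -0.74 to 0.75). IDI1, the isomerase of isopentenyl pyrophosphate, had -0.21 ± 0.42 (limma adjusted p = 0.914).

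Of the 5 called genes of the later part, 3 act in the removal of the methyl groups at carbon 4 of the sterol. ERG28 (YER044C), the scaffold that holds this enzyme complex, read 0.18, -0.82 and -0.92 in wild type and 3.39, 2.95 and 3.0 without Hap1. ERG26 (YGL001C), its dehydrogenase, read 0.40, -0.12 and -0.15 in wild type and 2.54, 2.70 and 2.85 without Hap1. ERG27 (YLR100W), its keto reductase, read -0.24, -0.80 and -1.26 in wild type and 1.62, 1.74 and 1.44 without Hap1. All 9 deletion values of these genes were above 1, while the wild-type values lay near or below 0. The differences were 3.63 ± 0.36, 2.66 ± 0.26 and 2.37 ± 0.32, with limma adjusted p of 0.0183, 0.0183 and 0.0450. ERG25, the methyl oxidase of the same complex, was not called. It read 0.16, 0.47 and 0.22 in wild type and 0.80, 0.12 and 0.66 without Hap1, with overlapping strains and a difference of 0.24 (95% confidence interval -0.42 to 0.89).

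ERG2 (YMR202W), the sterol isomerase, read 0.06, -0.07 and -0.94 in wild type and 2.12, 2.09 and 2.05 without Hap1. The deletion values spanned only 0.07, and the difference was 2.40 ± 0.32 (limma adjusted p = 0.0450). CYB5 (YNL111C), cytochrome b5, a heme protein that gives electrons to sterol desaturation, read -1.18, -2.08 and -2.48 in wild type and 2.25, 1.79 and 2.13 without Hap1. It was below 0 on every wild-type array and above 1.5 on every deletion array, a difference of 3.97 ± 0.38, 15.7-fold (limma adjusted p = 0.0183). CYB5 was also a member of the list of Hap1-activated genes.

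A further group of later genes had differences as large but did not pass, with wild-type replicate 1 apart from the other wild-type arrays. ERG5, the heme-containing sterol desaturase, read -0.04, -3.75 and -4.06 in wild type and 3.20, 3.04 and 2.33 without Hap1, a difference of 5.48 ± 1.02 (limma adjusted p = 0.155). ERG3, another sterol desaturase, read 0.73, -2.61 and -2.13 in wild type and 2.18, 2.26 and 1.97 without Hap1, a difference of 3.48 ± 0.82 (limma adjusted p = 0.296). ERG11, the heme-containing lanosterol demethylase, read 0.64, -1.70 and -1.93 in wild type and 1.57, 1.96 and 2.07 without Hap1, a difference of 2.87 ± 0.67 (limma adjusted p = 0.289). In all 3 genes the strains did not overlap, and replicate 1 was the highest wild-type array. Without wild-type replicate 1 the differences were 6.76 for ERG5, 4.51 for ERG3 and 3.69 for ERG11, and all 3 passed (limma adjusted p = 0.00611, 0.00780 and 0.0130). ERG6, the sterol methyltransferase, had 2.21 ± 0.38 with all arrays (limma adjusted p = 0.120) and 2.61 without that array (limma adjusted p = 0.0370). Replicate 1 was singled out from the values of these same genes, so the lower p-values without it are no separate support. With any other single array left out, no gene of the later list passed.

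By array, the median of the later list was 0.16, -0.80 and -0.94 in wild type and 1.83, 1.96 and 1.97 without Hap1. The squalene synthase ERG9 had a difference of 1.73 ± 0.37 (limma adjusted p = 0.224), the squalene epoxidase ERG1 2.64 ± 0.53 (limma adjusted p = 0.185), the lanosterol synthase ERG7 1.92 ± 0.37 (limma adjusted p = 0.162) and the final reductase ERG4 1.05 ± 0.39 (limma adjusted p = 0.564). None of these 4 passed, and all had higher values on every deletion array than on any wild-type array.

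Of 13 sterol regulators, importers and enzymes of ester formation and breakdown none passed, and the median difference was -0.38, with 4 of 13 above 0 and a median of -0.20 without deletion replicate 3. UPC2, an activator of sterol genes, had 0.08 ± 0.70 (limma adjusted p = 0.983) and its paralog ECM22 -0.83 ± 0.48 (limma adjusted p = 0.712). The largest positive members were the steryl ester hydrolase YEH1, which read -0.18, -2.11 and -2.08 in wild type and 1.68, 1.79 and 0.19 without Hap1 (2.68, limma adjusted p = 0.325), and the acyltransferase ARE2, with 1.97 ± 0.42 (limma adjusted p = 0.221). The importers AUS1 and PDR11 had differences of -1.41 and -0.99 (limma adjusted p = 0.818 and 0.791).

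Several called genes encode membrane proteins outside these pathways. SCM4 (YGR049W), a protein of the mitochondrial outer membrane, read 0.16, -2.13 and -2.36 in wild type and 4.05, 3.50 and 3.36 without Hap1. Its deletion values were among the highest of the called genes, wild-type replicate 1 lay above the other wild-type arrays, and the difference was 5.08 ± 0.67, 33.8-fold (limma adjusted p = 0.0450). FHN1 (YGR131W), a protein of the plasma membrane domains called eisosomes, read 0.90, 1.58 and 1.33 in wild type and 3.80, 4.61 and 4.29 without Hap1. It was above 0 in both strains and further above it without Hap1, a difference of 2.97 ± 0.32 (limma adjusted p = 0.0265). MSC7 (YHR039C), a gene of unknown function named for a recombination screen, read -0.31, -0.26 and -0.46 in wild type and 1.28, 1.52 and 1.35 without Hap1, a difference of 1.73 ± 0.23 (limma adjusted p = 0.0450). It had the smallest difference among the called genes, and since it fell outside the rule for naming genes it was chosen after its values were seen.

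IZH1 and IZH4 encode membrane proteins of zinc homeostasis that belong to the progestin and adiponectin receptor family. IZH4 (YOL101C) read -2.27, -3.49 and -1.91 in wild type and 1.38, 2.01 and 0.68 without Hap1, a difference of 3.92 ± 0.51 (limma adjusted p = 0.0450). IZH1 (YDR492W) read -3.10, -2.31 and -3.10 in wild type and 1.07, 0.46 and -0.34 without Hap1, a difference of 3.23 ± 0.43 (limma adjusted p = 0.0450). Both were far below 0 on all wild-type arrays, and their deletion values lay near or above 0. Their relative IZH2 had 0.64 ± 0.32 (limma adjusted p = 0.694). Of 10 zinc genes IZH1 and IZH4 were higher, against 0.306% of all tested genes, none was lower and the median was 0.10. The zinc transporters ZRT1 and ZRC1 had -1.21 ± 0.37 and -0.84 ± 0.24 (limma adjusted p = 0.436 and 0.402).

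URA1 (YKL216W), the dihydroorotate dehydrogenase of pyrimidine synthesis, read -1.5, -2.31 and -2.0 in wild type and 1.06, 0.79 and 0.43 without Hap1. It lay below -1 on every wild-type array and above 0 on every deletion array, a difference of 2.70 ± 0.31 (limma adjusted p = 0.0345). Of 26 genes of pyrimidine, purine and NAD synthesis it was the only one called, where 0.306% of all tested genes were called higher. The list's median was 0.01. URA3, the last enzyme of uridylate synthesis and a common selection marker in strain construction, read 0.92, 2.40 and 1.26 in wild type and 5.82, 4.69 and 4.17 without Hap1. The strains did not overlap, and the difference of 3.36 ± 0.54 did not pass (limma adjusted p = 0.0889). No source used here gives the auxotrophic markers of the strains. BNA2, the oxygen-using dioxygenase that opens NAD synthesis from tryptophan, read 1.23, 0.40 and 1.64 in wild type and 3.65 and 3.94 on deletion replicates 2 and 3 (2.71, limma adjusted p = 0.128).

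PRM10 (YJL108C), a pheromone-regulated membrane protein, read -1.21, -0.92 and -1.43 in wild type and 1.23 and 1.57 on deletion replicates 2 and 3, with replicate 1 missing. The difference was 2.59 ± 0.31 (n = 3 against 2, limma adjusted p = 0.0454). It was the only 1 of 21 pheromone-response genes that passed, where 0.306% of all tested genes were called higher. The list as a whole had a median of -0.57, with 5 of 21 above 0, against 2944 of 6208 tested genes. In the a-specific mating genes, listed as markers of cell type, none of 7 passed and the median was -0.94. AGA2, an agglutinin subunit of a cells, read 0.55, 3.74 and 2.12 in wild type and -1.16, -0.80 and -1.36 without Hap1 (-3.25, limma adjusted p = 0.273), and the a-factor gene MFA2 had -1.58 ± 0.35 (limma adjusted p = 0.244). Both had separate ranges in the strains. Of the 7 a-specific genes 4 were lower on every deletion array than on every wild-type array, against 8.72% of all genes with 6 values. The difference was above 0 in 1 of the 7. None of 4 alpha-specific genes passed (median 0.14), nor did any of 17 meiosis genes (median 0.21). No source used here gives the mating type or ploidy of the strains, and their part in these differences was not tested.

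The 3 genes that were lower without Hap1 shared a form, higher in hypoxia in wild type and slightly below 0 in the deletion strain. PTR2 (YKR093W), the transporter of small peptides, read 1.45, 2.27 and 2.08 in wild type and -0.63, -0.50 and -0.32 without Hap1, a difference of -2.42 ± 0.29 (limma adjusted p = 0.0403). TIP1 (YBR067C), a cell wall mannoprotein, read 1.52, 1.14 and 1.48 in wild type and -0.59, -0.27 and -0.66 without Hap1, a difference of -1.88 ± 0.25 (limma adjusted p = 0.0450). IDH2 (YOR136W), a subunit of mitochondrial isocitrate dehydrogenase, read 1.90, 1.58 and 1.52 in wild type and -0.05, -0.25 and -0.51 without Hap1, a difference of -1.94 ± 0.25 (limma adjusted p = 0.0450). In each gene all wild-type values were above 1 and all deletion values below 0. None of the 3 was called without wild-type replicate 2 or 3 or without any deletion replicate, and 1 lower gene was called without wild-type replicate 1.

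In the tricarboxylic acid cycle IDH2 was the only 1 of 15 genes called, and 14 of the 15 differences were below 0, with a median of -0.52. Over all tested genes 0.0483% were called lower, and 3264 of 6208 differences were below 0. Separate ranges with lower values without Hap1 were seen in 6 of the 15, against 8.72% of all genes with 6 values. IDH1, the other subunit of isocitrate dehydrogenase, read 1.43, 2.05 and 1.57 in wild type and 0.18, -0.23 and -0.19 without Hap1, a difference of -1.77 ± 0.28 that did not pass (limma adjusted p = 0.0827). ACO1, aconitase, read 1.98, 2.12 and 1.75 in wild type and 0.19, 0.49 and -0.38 without Hap1, a difference of -1.85 ± 0.30 (limma adjusted p = 0.0889). These are neighbouring steps of the cycle, and in both genes all wild-type values lay above all deletion values. MDH1, the mitochondrial malate dehydrogenase, had -1.60 ± 0.43 (limma adjusted p = 0.373), while the 2-oxoglutarate dehydrogenase subunit KGD1 had -0.15 ± 0.27. The list's median ranged from -0.69 without wild-type replicate 3 to -0.22 without wild-type replicate 1.

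In the respiratory chain CYC1 was the only gene called, and 16 of 18 differences among subunits of complexes III and IV were above 0 without passing. Of 9 genes of the cytochrome bc1 complex none passed, all 9 differences were above 0 and 5 had separate ranges in the strains, with a median of 1.16 that was 1.79 without wild-type replicate 1 and 0.85 without wild-type replicate 3. Of 9 nuclear genes of cytochrome oxidase none passed, 7 were above 0 and 5 of the 8 with 6 values had separate ranges, with a median of 1.52 that was 1.86 and 1.01 without those arrays in turn. Higher values on every deletion array were seen in 6.49% of all genes with 6 values. The median difference of all tested genes was -0.03. The Rieske protein RIP1 read -0.59, -2.46 and -2.15 in wild type and -1.08, 0.06 and 1.09 without Hap1, so its strains overlapped, and its difference was 1.76 ± 0.68 (limma adjusted p = 0.594). QCR8, a small bc1 subunit, read -0.38, -1.23 and -1.25 in wild type and 0.01, 0.62 and 1.33 without Hap1, a difference of 1.61 ± 0.42 (limma adjusted p = 0.353).

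**Figure D4:**
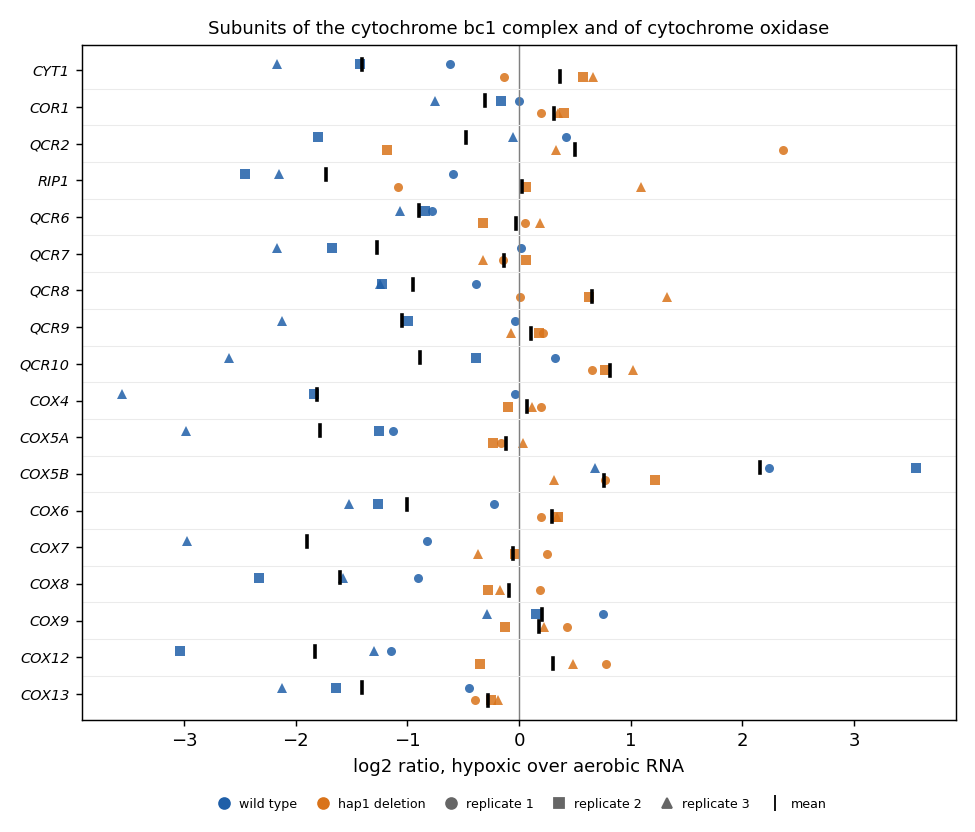
Log2 ratio of hypoxic over aerobic RNA (horizontal axis) of 9 subunits of the cytochrome bc1 complex (CYT1 to QCR10) and 9 nuclear subunits of cytochrome oxidase (COX4 to COX13). Each point is 1 array (blue wild type, orange hap1 deletion, shape for the replicate) and black bars are strain means. Most wild-type means lie below 0 and most deletion means near it, with COX5B on the other side.

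COX12, a peripheral subunit of cytochrome oxidase, read -1.15, -3.03 and -1.30 in wild type and 0.78, -0.35 and 0.48 without Hap1, a difference of 2.13 ± 0.57 (limma adjusted p = 0.371). COX8 had 1.52 ± 0.39 (limma adjusted p = 0.353). The isoforms of subunit V, which replace each other with oxygen, had differences of opposite sign. COX5A, the aerobic isoform, read -1.12, -1.25 and -2.98 in wild type and -0.16, -0.23 and 0.03 without Hap1, a difference of 1.67 ± 0.51 (limma adjusted p = 0.434). COX5B, the hypoxic isoform, read 2.23, 3.55 and 0.68 in wild type and 0.77, 1.22 and 0.31 without Hap1, a difference of -1.39 ± 0.69 with overlapping strains (limma adjusted p = 0.686).

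Among 12 dehydrogenases and cytochromes c, 1 was higher (CYC1), against 0.306% of all tested genes, and the median was 0.31. NDE1, the external NADH dehydrogenase, read -2.5, -4.74 and -6.35 in wild type and -2.06, -1.85 and -2.32 without Hap1. It was below 0 on all 6 arrays, and the difference of 2.45 ± 0.88 did not pass (limma adjusted p = 0.547). None of 13 genes of ATP synthase passed, with a median of 0.19, and none of 14 mitochondrial carriers and porins did, with a median of 0.30 (0.19 without deletion replicate 2).

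None of 23 seripauperins (PAU), small cell wall proteins of anaerobic growth, passed the test. Their median difference was 1.45, 21 of 23 differences were above 0, and 16 of the 21 with 6 values had separate ranges, against 6.49% of all genes with 6 values. By array the family's median was 2.92, 3.05 and 2.10 in wild type and 4.20, 4.47 and 4.91 without Hap1. PAU6 read 3.67, 3.98 and 2.18 in wild type and 10.24, 7.05 and 5.25 without Hap1, a difference of 4.24 ± 1.20 (limma adjusted p = 0.404), with a wide spread between the deletion arrays. PAU10 had 2.11 ± 0.39 (limma adjusted p = 0.155). PAU genes are close copies of each other that may cross-hybridise, so single members are uncertain and the counts above are not of independent genes. Without wild-type replicate 3 the median was 1.03 and 17 of 23 differences were above 0.

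The DAN and TIR mannoproteins, also of the anaerobic cell wall, lay on both sides of 0. None of 8 passed, 2 differences were above 0 and the median was -0.34, with no stable direction, since it ran from -0.93 with array weights to 0.10 without wild-type replicate 2. PAU23 and PAU24 were in this list and in the PAU list. DAN4 read 1.82, 3.12 and 2.99 in wild type and 4.32, 5.14 and 5.96 without Hap1, a difference of 2.5 ± 0.52 (limma adjusted p = 0.213). TIR2 read 3.42, 5.71 and 4.90 in wild type and 2.72, 2.63 and 3.34 without Hap1, a difference of -1.78 ± 0.58 (limma adjusted p = 0.470). In both genes the strains did not overlap, in opposite directions. Of 8 cell wall proteins of aerobic growth none passed (median -0.35, and -0.09 without deletion replicate 1). CWP1 read 0.20, 2.07 and 1.59 in wild type and -0.49, -1.27 and -0.85 without Hap1 (-2.16, limma adjusted p = 0.290).

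Heme synthesis and the genes that Rox1 represses did not pass in any member. The 8 heme genes had a median of -0.25 and the 8 Rox1-repressed genes one of -0.18, with 4 of the latter above 0. HEM13, the oxygen-using coproporphyrinogen oxidase and a Rox1 target, read 2.13, 3.67 and 3.38 in wild type and 2.12, 1.90 and 1.88 without Hap1. It was above 0 on all 6 arrays, every deletion value lay below every wild-type value, and the difference of -1.09 ± 0.42 did not pass (limma adjusted p = 0.592). AAC3, a mitochondrial ADP/ATP carrier made in hypoxia, read -0.32, 2.55 and 1.26 in wild type and -0.39, -0.69 and -0.70 without Hap1 (-1.76, limma adjusted p = 0.582). ANB1, a hypoxic translation factor gene, read -1.43, -0.52 and -1.16 in wild type and 0.57, 0.38 and 0.29 without Hap1 (1.45, limma adjusted p = 0.213), and HYP2, a near-identical copy, may contribute to its spot.

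Of 15 oxygen and heme regulators none passed, and the median was 0.01. HAP4, the activator subunit of the Hap2/3/4/5 complex that drives respiratory genes, read 1.38, -1.57 and -1.14 in wild type and -0.95, -1.67 and -0.58 without Hap1, with overlapping strains (-0.62, limma adjusted p = 0.844). In the iron regulon none of 28 genes passed and the median was -0.27, and 8 of the 26 with 6 values were lower on every deletion array than on every wild-type array, against 8.72% of all genes with 6 values. FIT2 and FIT3, cell wall mannoproteins of siderophore uptake, were among these 8. FIT2 read 3.20, 0.59 and 0.73 in wild type and -0.63, -0.93 and -1.21 without Hap1 (-2.43, limma adjusted p = 0.404), and FIT3 read 1.57, 0.33 and 0.71 and -0.79, -0.65 and -1.18 (-1.75, limma adjusted p = 0.221).

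No gene passed in the lists of carbon storage and stress. All 17 glycogen and trehalose genes had differences below 0, with a median of -0.85, and 1 of the 14 with 6 values had separate ranges, against 8.72% of all genes with 6 values. The glycogen and trehalose median was -0.36 without deletion replicate 1. The 21 general stress genes had a median of -0.94, which ran from -1.5 without wild-type replicate 3 to -0.37 without wild-type replicate 1. By array the stress median was 3.29, 1.08 and 0.87 in wild type and 0.02, 0.56 and 2.16 without Hap1. Wild-type replicate 1 and deletion replicate 3 were thus the highest arrays of their strains, and the strains overlapped. The glycogen phosphorylase GPH1 had -3.54 ± 0.70 from 2 values in each strain (limma adjusted p = 0.297). The part of the stress response in the other differences was not tested.

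Antioxidant genes included YHB1 as the only 1 of 22 called, where 0.306% of all tested genes were called higher. The antioxidant median was -0.02. In the other lists none passed, and the medians were -0.33 for 22 chaperones, -0.30 for 26 genes of glycolysis and fermentation, 0.22 for 13 hexose transporters and -0.32 for 13 glycerol genes. Under the alternatives the chaperone median ran from -0.66 to -0.23 and the glycerol median from -0.54 to -0.15. For nutrients they were 0.20 for 18 phosphate genes, -0.34 for 28 genes of sulfur and methionine (-0.37 to -0.15 under the alternatives) and 0.01 for 53 of amino acid synthesis. The 18 sphingolipid genes had a median of -0.05 and the 15 genes of beta-oxidation -0.07. For protein synthesis and turnover they were 0.10 for 99 ribosome biogenesis genes, -0.01 for 133 cytosolic and -0.13 for 66 mitochondrial ribosomal proteins, 0.13 for 10 histones and -0.28 for 33 proteasome genes.

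**Figure D5:**
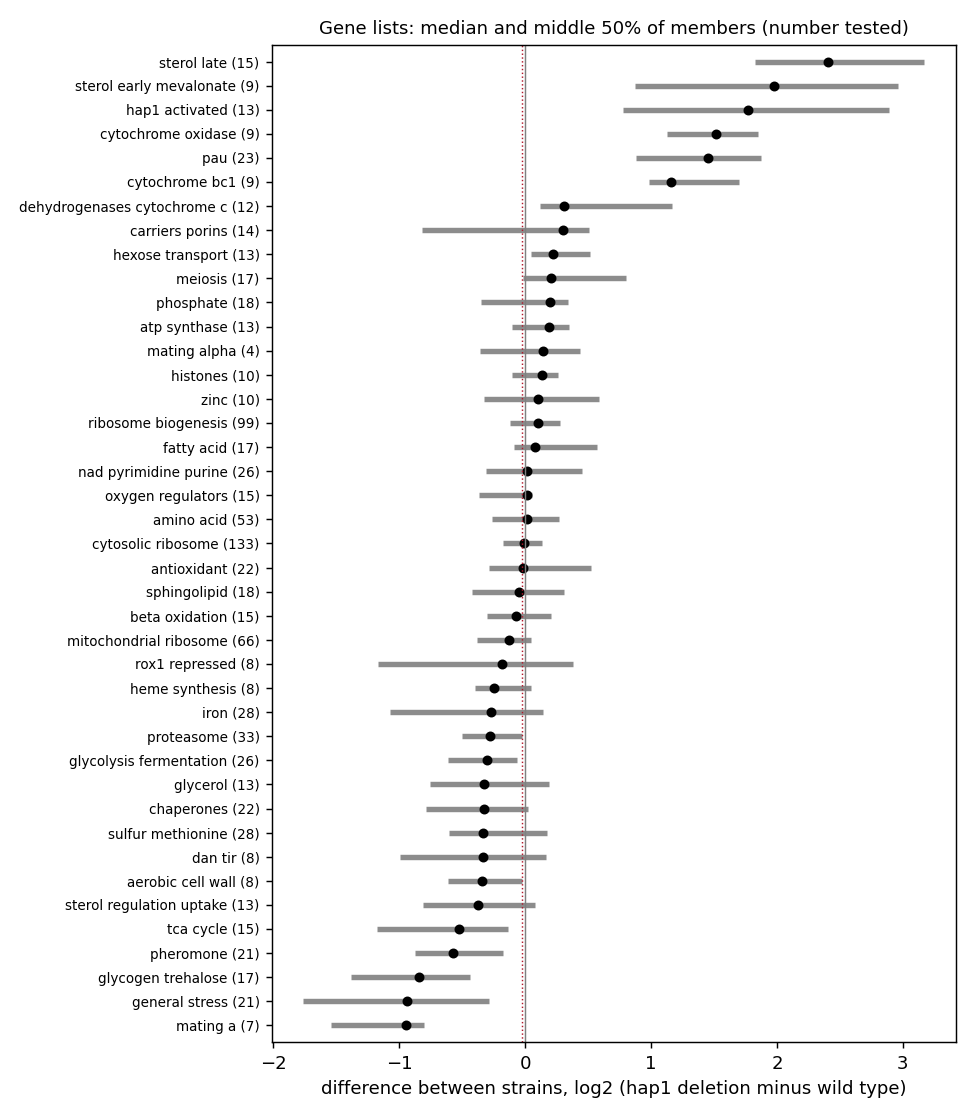
Log2 difference, hap1 deletion minus wild type (horizontal axis), in 41 gene lists, with the number of tested members in brackets. Points are list medians, grey bars run from the lower to the upper quartile of the members and the dotted line is the median of all tested genes. Later and early sterol synthesis have the highest medians, 2.40 and 1.98. The a-specific mating genes and the general stress genes have the lowest, each near -0.94.

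The chromosomal neighbours of the called genes were also read. They were taken as the systematic names numbered directly before and after on the same arm. Names that end in a dash and a letter were left out. Of 41 tested neighbours none passed, where 0.306% of all tested genes were called higher and 0.0483% lower, so this count says little about neighbours. Separate ranges were seen with higher values without Hap1 in 8 and with lower values in 2, against 6.49% and 8.72% of all genes with 6 values. The number of neighbours with 6 values was not counted. The largest neighbour difference was 3.32 ± 0.51 for the reading frame YDR491C beside IZH1, which read -2.29, -1.55 and -2.55 in wild type and 2.10, 1.18 and 0.29 without Hap1 (limma adjusted p = 0.0792). YLR101C beside ERG27 had 2.48 ± 0.41 (limma adjusted p = 0.0900). These spots were named after their values were seen, and whether they overlap the called genes was not determined, since no source used here gives the position of the spots.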

How the data were processed

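The 6 arrays were 2-colour hybridisations of poly(A)-primed RNA, with hypoxic RNA in Cy5 on replicates 1 and 3 and in Cy3 on replicate 2 of each strain. Spots were quantified with GenePix 5.0, per the labels. The authors deposited log10 ratios, with aerobic over hypoxic RNA per the titles. No source used here gives their background correction, spot filters or normalization, and spot intensities were not used here. The base was read from the values, since 330 of 36476 were exact ratios of whole numbers with denominators up to 30 under base 10, against 7 under base 2 and 6 under base e (relative tolerance 7e-08). The replicate 2 arrays correlated positively with the others of their strain, so dyes were taken as already turned. Values were converted to log2 of hypoxic over aerobic.

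Strain means and their difference were tested two-sided with limma 3.58.1 in R 4.3.3 (lmFit, eBayes; 4 residual degrees of freedom, prior of 2.97 degrees of freedom and SD 0.404), with Benjamini-Hochberg adjustment over 6208 genes and a threshold of 0.05. The script was tested on simulated data. The 41 gene lists (13 entries unmatched) and all members named were chosen with earlier results of these data known. By rule the text names the 12 largest called differences of each sign, the called members of each list with up to 4 others, and CYC1, CYC7, YHB1, HMG1, CYT1, ROX1, ERG11, OLE1, HEM13 and HAP1. Further pathway steps, regulators and isoforms were named after their values were seen. Symbols came from the RefSeq gene table of assembly R64 (5156 of 6282 rows). Alternatives changed centring, scaling, the genes tested, the prior, array weights, dye, the replicate block and single arrays. Promoter sequences were not analysed here.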

Additional observations from a re-analysis of the deposited data

Results flagged for a closer look

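The response to low oxygen differed between the strains, by the test of the difference itself, for 22 genes, and these were looked at again because an effect under the same contrast differed between 2 groups. In sterol synthesis the differences (deletion minus wild type, log2) were 1.97 for ERG10, 3.0 for ERG13, 3.29 for ERG8, 2.96 for MVD1, 2.66 for ERG26, 2.37 for ERG27, 3.63 for ERG28, 2.40 for ERG2 and 3.97 for CYB5. Among other genes that were higher without Hap1 they were 6.01 for OLE1, 5.11 for YHB1, 5.08 for SCM4, 4.89 for CYC1, 3.92 for IZH4, 3.23 for IZH1, 2.97 for FHN1, 2.70 for URA1, 2.59 for PRM10 and 1.73 for MSC7. The 3 lower genes had -2.42 (PTR2), -1.94 (IDH2) and -1.88 (TIP1). YHB1 and CYC1 passed without any 1 of the 6 arrays, and the other 20 did not pass without at least 1 of them.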

How the results depend on the processing

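Against 19 higher and 3 lower genes (22 in all), arrays centred and scaled to the same spread gave 3 and 0 (3 in all: ERG26, CYC1 and ERG13), quantile normalization 12 and 1 (13), a dye term 7 and 0 (7) and array weights 31 and 4 (35, with all 22 among them). Left out in turn, single arrays gave 2 to 15 higher, 0 to 1 lower and 2 to 16 calls in all. These fits included genes with 1 value left in a strain, which is then assumed to vary like the other. The 16 came without wild-type replicate 1, and 12 of them were among the 22. Each of the other 5 arrays, left out, gave 2, namely YHB1 and CYC1. Centring alone, a robust prior, genes with all 6 values, and genes with at least 1 value per strain gave 18 to 20 higher genes. Each of them gave 3 lower genes. A 2-fold minimum could not change the calls, since the smallest called difference was 1.73 in size. Fits with 1 array left out had a median of 3 residual degrees of freedom, against 4 in the main fit, whether 16 or 2 genes were called. The cause of these changes in the calls was not tested.

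Same-numbered arrays of the 2 strains deviated together at r = -0.033, 0.058 and 0.135 over 5301 genes, so the numbers were not taken to pair the samples. With the replicate block, limma called 0 higher and 0 lower genes (0 in all), with 469 of 6088 at an unadjusted p under 0.05 and 2 residual degrees of freedom. No called gene changed sign under any alternative. The sign changed for genes that did not pass. HMG2 had -0.018 with scaling, -0.024 with quantile normalization, -0.11 with array weights and -0.27 to 0.16 with single arrays left out. UPC2 had -0.027 with scaling, -0.36 with array weights and -0.79 to 0.56 with single arrays left out. Leaving out single arrays also moved IDI1 between -0.55 and 0.088, HAP4 between -1.18 and 0.29 and CTT1 between -0.044 and 1.97. Signal over background, which limits faint spots, was not analysed here.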

Other observations

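Among 12 genes with an adjusted p between 0.05 and 0.10, several lay beside the groups already described, and they were named after their values were seen. ACS2, the acetyl-CoA synthetase that supplies the starting compound of sterol and fatty acid synthesis, read -1.0, -1.81 and -1.49 in wild type and 0.19, 0.53 and 0.66 without Hap1, a difference of 1.89 ± 0.30 (limma adjusted p = 0.0827). All its wild-type values were at or below -1.0 and all deletion values above 0. SLI1, an acetyltransferase that confers resistance to a sphingolipid inhibitor, read -0.36, -0.43 and -0.14 in wild type and 1.68 and 1.76 on deletion replicates 2 and 3 (2.03, limma adjusted p = 0.0792). ZRG8, a gene named for its regulation by zinc, read 0.37, -0.55 and -0.22 in wild type and 1.77, 1.63 and 1.75 without Hap1 (1.85, limma adjusted p = 0.0889). ERG29, a gene of ergosterol synthesis outside the lists, was not among these 12. It read 0.30, -1.51 and -1.41 in wild type and 2.51, 2.01 and 1.41 without Hap1, a difference of 2.85 ± 0.55 (limma adjusted p = 0.169). Wild-type replicate 1 was apart from the other wild-type arrays, as for ERG5, ERG3 and ERG11. ERG29 passed with array weights, as did ACS2, SLI1 and ZRG8. None of them was called under any other alternative.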
